A study of Arabidopsis thaliana with 9 samples.

Results

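Transcripts of 6 alpha-expansin genes (EXPA1, EXPA4, EXPA5, EXPA8, EXPA10 and EXPA11) and 4 xyloglucan endotransglucosylase/hydrolase genes (XTH4, XTH15, XTH22 and XTH24) of Arabidopsis thaliana were followed in whole seedlings. They were taken by locus, 10 of the 33602 loci of the deposited count table, and all 10 passed the filter on low counts. Seedlings of the wild type Col-0 were set against seedlings of the lines emb1579-1 and emb1579-3, which the labels call rsa1 mutants in the Col-0 background, at 6 days after transfer to 20 °C. Every genotype was grown alike on diluted Murashige and Skoog medium after 3 days of stratification, with no other agent named. The labels name neither the lesion of a line nor a transgene. The series asked how EMB1579 acts on genes of root growth and development. The values rest on 2 libraries of Col-0, 3 labelled emb1579-1 and 3 assigned to emb1579-3.

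Growing plant cells enlarge by letting their primary wall yield to turgor. Expansins are secreted proteins that loosen contacts between cellulose and the matrix without cutting a chain, and they act best in an acid wall. XTH enzymes cut xyloglucan, the polymer that binds cellulose microfibrils, and join the cut end to another chain or to water. Both families are large, and brassinosteroid, auxin, light and touch are known to change the transcripts of single members.

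The promoters of 4 members called in the comparisons below are shown first: EXPA1, EXPA8 and EXPA11, which were lower in emb1579-3, and XTH4, which was higher in the emb1579-1-labelled libraries. Each run covers 250 bases before and 50 after the annotated gene start in TAIR10.1 (RefSeq), read 5′ to 3′ on the strand of the gene. The windows are chr1:26141476-26141775 (plus strand), chr2:16950656-16950955 (minus), chr1:6999790-7000089 (minus) and chr2:2763199-2763498 (plus). Capitals mark matches, on either strand, to the G-box CACGTG and the E-box CACATG bound by phytochrome-interacting factors. They also mark CGTGNG, a loose form of the brassinosteroid response element with any base at N, the auxin response element TGTCTC and the TATA box TATAAA.
EXPA1: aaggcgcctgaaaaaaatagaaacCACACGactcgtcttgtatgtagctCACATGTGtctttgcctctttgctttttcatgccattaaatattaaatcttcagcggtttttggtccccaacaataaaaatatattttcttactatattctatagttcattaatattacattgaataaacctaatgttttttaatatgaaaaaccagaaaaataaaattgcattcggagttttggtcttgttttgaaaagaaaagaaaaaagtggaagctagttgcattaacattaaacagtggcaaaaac
EXPA8: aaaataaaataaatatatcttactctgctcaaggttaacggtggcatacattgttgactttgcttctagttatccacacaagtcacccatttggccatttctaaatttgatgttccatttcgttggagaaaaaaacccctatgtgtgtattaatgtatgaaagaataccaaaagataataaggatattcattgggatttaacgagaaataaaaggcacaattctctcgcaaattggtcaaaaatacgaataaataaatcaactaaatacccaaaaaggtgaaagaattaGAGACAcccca
EXPA11: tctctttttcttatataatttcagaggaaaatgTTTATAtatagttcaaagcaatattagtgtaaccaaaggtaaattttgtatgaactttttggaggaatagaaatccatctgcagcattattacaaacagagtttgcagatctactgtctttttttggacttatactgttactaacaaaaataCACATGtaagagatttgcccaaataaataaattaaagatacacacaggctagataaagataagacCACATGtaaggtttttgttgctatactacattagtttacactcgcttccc
XTH4: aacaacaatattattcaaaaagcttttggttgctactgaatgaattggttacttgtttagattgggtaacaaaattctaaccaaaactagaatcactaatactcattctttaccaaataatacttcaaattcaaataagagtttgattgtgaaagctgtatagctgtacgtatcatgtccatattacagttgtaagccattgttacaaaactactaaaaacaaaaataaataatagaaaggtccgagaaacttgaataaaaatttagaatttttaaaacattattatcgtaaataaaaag
The E-box CACATG was in the windows of 3 of the 10 members, EXPA1, EXPA10 and EXPA11, and in 12.9% of the 27425 protein-coding promoters of the same length. In EXPA1 and EXPA10 the matches on the 2 strands overlap in the 8 letters CACATGTG. The auxin element was found in 3 members, EXPA5, EXPA8 and EXPA10, and in 14.2% of all promoters. The loose form CGTGNG was in 1 member, EXPA1, where it reads CGTGTG, and in 15.2% of promoters. The auxin match of EXPA8 stood after the gene start, at 40 on the other strand, and those of EXPA5 and EXPA10 stood before it. No member window held CACGTG, which 7.68% of promoters hold, and the window of XTH4 held none of the 5 motifs. The letters TATAAA were in 5 members and 52.1% of promoters. On the gene strand they stood at -60 from the gene start in EXPA5, -74 in XTH22, and -220 and -208 in EXPA4. On the other strand they stood at -217 in EXPA11, and after the start at 16 in XTH22 and 31 in XTH24. These matches describe letters and do not show that a factor binds.

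EMB1579 (AT2G03150), the gene after which both lines are named, was at 93.5 and 94.4 CPM (read counts per M of TMM-scaled nuclear counts) in the Col-0 libraries. It was at 90.2, 94.1 and 91.9 CPM in the emb1579-1-labelled libraries, and at 4.06, 2.08 and 2.17 CPM in emb1579-3. The transcript was not detectably different from the wild type in the emb1579-1-labelled libraries (log2 fold change -0.03, 95% interval -0.26 to 0.20, edgeR adjusted p = 0.898), and their label is kept as the submitters gave it. The columns used for emb1579-3 carry a prefix that matches no label and were assigned to that line by elimination. Between 12.5 and 19.0 M nuclear counts stood behind each of the 8 values of a gene. Col-0 replicate 3 held 0.42 M, correlated with no other library above 0.315 and had 0 to 6 counts for each member, and it was left out. With it kept in the fit, no member passed the test in any comparison. In a whole seedling, fewer cells of a type and less RNA per cell cannot be told apart. All 6 shoot markers and 8 root markers were detected in every library. The summed root markers, mostly PYK10, ran from 2269.0 to 2718.5 CPM in Col-0, from 1248.2 to 1604.7 in the emb1579-1-labelled libraries and from 1081.1 to 1489.9 in emb1579-3. Of the 8, PYK10 and CASP1, which each overlap another gene, fell in both lines, and PIN2 rose in emb1579-3 (0.38, adjusted p = 0.012), a call lost without Col-0 replicate 1 (0.31, adjusted p = 0.111). Log2 fold changes of the 8 ran from -1.21 to 0.73 (median -0.06) in the emb1579-1-labelled libraries and from -1.07 to 0.75 (median 0.07) in emb1579-3. The summed shoot markers ran from 34615.2 to 39394.6, from 30254.1 to 35733.4 and from 31452.2 to 33887.6 CPM. Of these 6, 1 was higher (LHCB2.2) and 2 were lower (CA1 and RBCS3B) in each line. Of all genes tested, 8.35% were called higher and 9.63% lower in the first comparison, and 10% and 10.5% in the second. LHCB2.2 lost both calls without Col-0 replicate 2 (0.28 and 0.26, adjusted p = 0.164 and 0.176) and the second without emb1579-3 replicate 2 (0.27, adjusted p = 0.0903). RBCS3B lost its first without Col-0 replicate 1 or emb1579-1 replicate 2 or 3 (-0.35 to -0.32, adjusted p = 0.0943 to 0.112) and its second without either Col-0 library or any of emb1579-3 (-0.41 to -0.29, adjusted p = 0.053 to 0.15). The part of these shifts in the results below was not tested.

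The members covered a wide range of levels. Per kilobase of merged exon, which allows genes to be compared, the order in Col-0 was XTH22 at 107.8 ± 13.3 CPM per kb (SD, n = 2), XTH4 at 95.1 ± 12.6, EXPA1 at 94.5 ± 10.05, EXPA8 at 56.3 ± 12.7, EXPA4 at 53.4 ± 0.241, EXPA11 at 43.9 ± 6.43, XTH24 at 42.6 ± 11.5, EXPA5 at 20.2 ± 0.396, EXPA10 at 15.4 ± 0.124 and XTH15 at 6.82 ± 0.852. The ranges of neighbours overlapped within the first 3, between EXPA8 and EXPA4, and between EXPA11 and XTH24. The order differed in the emb1579-1-labelled libraries (n = 3), where XTH4 at 134.8 ± 6.46 CPM per kb stood above XTH24 at 92.5 ± 9.98 with no overlap, followed by EXPA1 at 80.1 ± 6.50 and XTH22 at 79.8 ± 9.69, whose ranges overlapped with that of XTH24 or with each other. In emb1579-3 (n = 3) XTH22 at 105.8 ± 12.4 CPM per kb and XTH4 at 98.5 ± 2.70 overlapped at the top, above EXPA1 at 65.1 ± 6.85. XTH15 was the lowest member in each genotype.

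The expansin members as a group were lower or close to the Col-0 level, and EXPA8 was the member called lower in both lines. The 6 genes summed to between 383.0 and 442.6 CPM in Col-0, between 330.2 and 374.4 CPM in the emb1579-1-labelled libraries and between 301.9 and 323.4 CPM in emb1579-3. The highest and lowest sums of neighbouring groups did not overlap. Since these 6 were the larger part of the family, their share of the summed CPM per kb of all 26 alpha-expansins was 67.9% ± 1.88 in Col-0, 62.8% ± 1.81 in the emb1579-1-labelled libraries and 61.5% ± 1.46 in emb1579-3. By edgeR's quasi-likelihood test, 1 of 6 fell and 0 rose in the emb1579-1-labelled libraries, where 18% of all 20434 genes tested were called in either direction (8.35% higher and 9.63% lower). At an unadjusted p under 0.05 the numbers were 3 lower and 0 higher, beside 3198 and 2975 of the 20434 genes. DESeq2 called 1 lower and 0 higher, beside 1703 and 1568 of all genes. In emb1579-3, 3 of 6 fell and 0 rose, where 20.5% of all genes were called (10% higher and 10.5% lower). There, 3 were lower and 1 higher at an unadjusted p under 0.05, beside 3379 and 3249 of the 20434 genes. DESeq2 called 3 lower and 0 higher, beside 1799 and 1797 of all genes. The median log2 fold change of the 6 was -0.16 and -0.30, against 0.00 over all genes tested in each comparison.

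**Figure D1:**
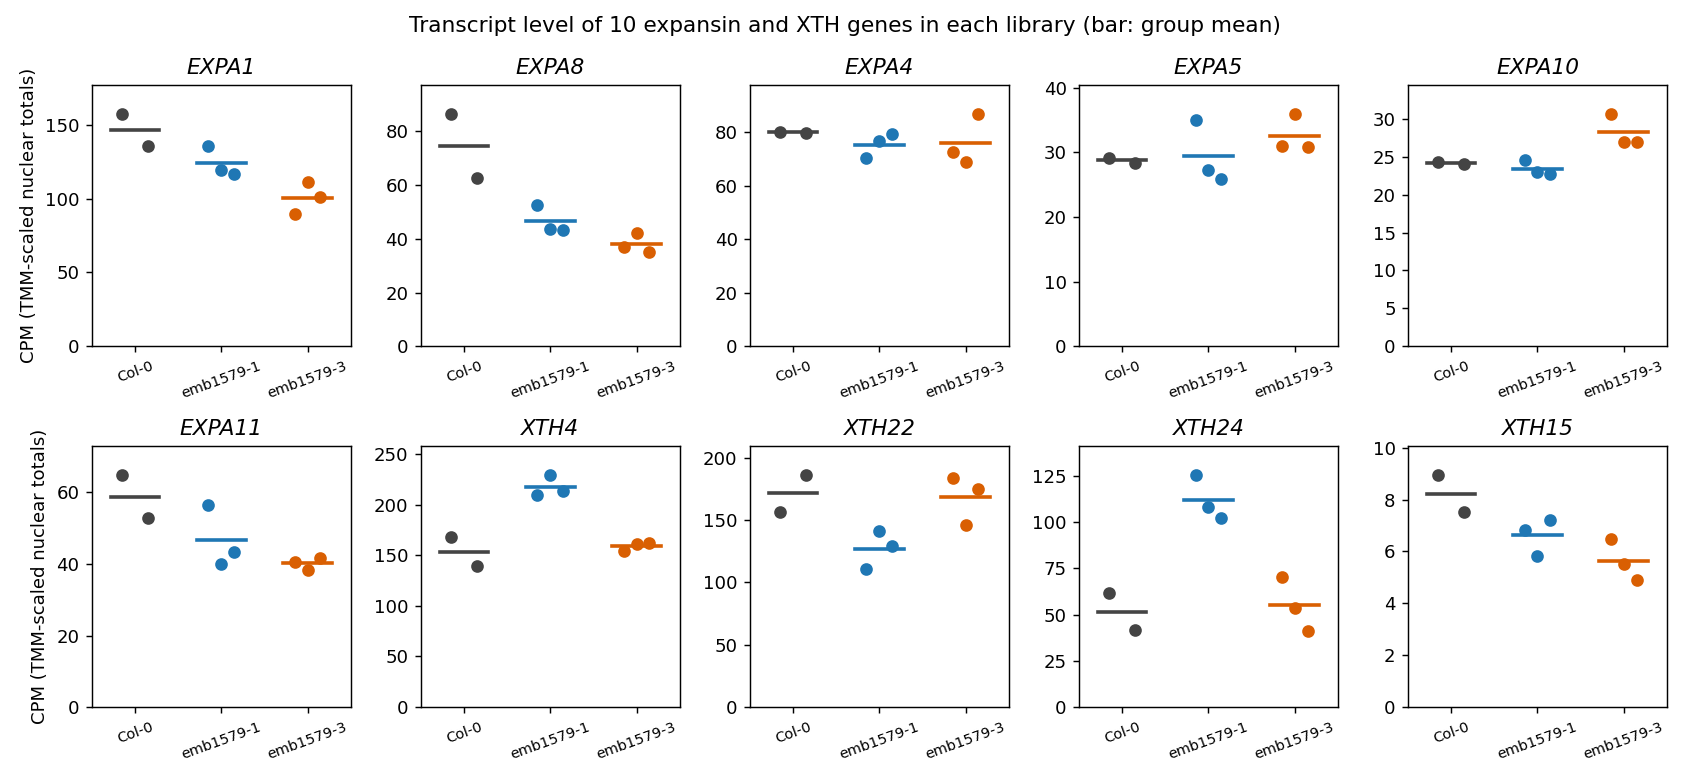
Level of each member in every library, in CPM on TMM-scaled nuclear totals with axes from 0, for Col-0 (2 libraries), emb1579-1-labelled libraries (3) and emb1579-3 (3); points are libraries and bars group means. EXPA8 lies below Col-0 in all 6 libraries of the lines, and the 3 highest values of XTH4 and XTH24 are those of the emb1579-1-labelled libraries.

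EXPA8 (AT2G40610, chromosome 2 from 16948791 to 16950705, minus strand) was at 86.5 and 62.7 CPM in Col-0. It was at 52.5, 43.6 and 43.4 CPM in the emb1579-1-labelled libraries and at 37.1, 42.2 and 35.1 CPM in emb1579-3. All 6 libraries of the lines were below both Col-0 libraries, and the Col-0 libraries differed from each other by more than the libraries of either line did. The log2 fold change was -0.68 (SE 0.13, edgeR adjusted p = 0.0025) and -0.97 (SE 0.13, adjusted p = 0.000171), or 0.624-fold and 0.511-fold of the Col-0 level. Without Col-0 replicate 1, the higher of the pair, the values were -0.42 (adjusted p = 0.0196) and -0.70 (adjusted p = 0.000396). Of all genes tested, 7.19% were called lower in both lines by edgeR, and among the 10 members EXPA8 alone was, as by DESeq2. At an unadjusted p under 0.05, EXPA1 (-0.24 and -0.54) and EXPA11 (-0.34 and -0.55) were also lower in both lines. No member rose in both by edgeR, at an unadjusted p under 0.05 or by DESeq2 (0 of 10), where 6.31% of all genes did by edgeR.

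EXPA1 (AT1G69530, chromosome 1 from 26141726 to 26143538, plus strand), which is known for its part in the wall movements of guard cells, was the most abundant expansin of the family in Col-0. Its level was 157.3 and 135.3 CPM in Col-0, 135.5, 119.6 and 116.8 CPM in the emb1579-1-labelled libraries, and 89.9, 111.1 and 101.1 CPM in emb1579-3. All 3 emb1579-3 libraries were below Col-0, and 1 library labelled emb1579-1 overlapped the lower Col-0 value. The fall in emb1579-3 was -0.54 on the log2 scale (SE 0.10, edgeR adjusted p = 0.000745). In the emb1579-1-labelled libraries the value was -0.24 (SE 0.10, adjusted p = 0.106), which passed when emb1579-1 replicate 1 was left out (-0.31, adjusted p = 0.0284).

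EXPA11 (AT1G20190, chromosome 1 from 6998335 to 6999839, minus strand) was at 65.0 and 52.8 CPM in Col-0, at 56.6, 39.9 and 43.3 CPM in the emb1579-1-labelled libraries, and at 40.7, 38.3 and 41.5 CPM in emb1579-3. The emb1579-3 libraries lay close together and below Col-0, while replicate 1 labelled emb1579-1 fell between the Col-0 values. Against Col-0 it fell by 0.55 on the log2 scale in emb1579-3 (SE 0.13, edgeR adjusted p = 0.00793), a call lost without Col-0 replicate 1 (-0.38, adjusted p = 0.0839). In the emb1579-1-labelled libraries it was at -0.34 (SE 0.13, adjusted p = 0.089). By edgeR it passed there without emb1579-1 replicate 1 (-0.50, adjusted p = 0.00132) or with no filter on low counts (-0.31, adjusted p = 0.0253). Without Col-0 replicate 2, which leaves 1 Col-0 library, it was at -0.48.

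The other 3 expansin members did not pass the test in either line. EXPA4 (AT2G39700) was at 80.3 and 79.8 CPM in Col-0, with 69.0 to 86.9 CPM over the 6 libraries of the lines and log2 fold changes of -0.09 (95% interval -0.29 to 0.11) and -0.07 (-0.27 to 0.13). EXPA5 (AT3G29030), known for leaf and stem growth under brassinosteroid, was at 29.2 and 28.4 CPM in Col-0 and at 25.8 to 35.9 CPM in the libraries of the lines, with 0.03 (-0.22 to 0.28) and 0.18 (-0.07 to 0.43). EXPA10 (AT1G26770), a gene of petiole and leaf growth, was at 24.4 and 24.1 CPM in Col-0 and at 22.8 to 30.6 CPM in the libraries of the lines, with -0.05 (-0.26 to 0.17) and 0.22 (0.01 to 0.43, adjusted p = 0.135). These intervals leave room for changes of up to 0.43 on the log2 scale.

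The 4 XTH members moved apart from each other, and mainly in the emb1579-1-labelled libraries. There, XTH4 and XTH24 rose and XTH22 fell, and in emb1579-3 only the low-level gene XTH15 was called, as lower. That gives 2 of 4 higher and 1 lower in the first line, beside 8.35% and 9.63% of all genes, and 0 higher and 1 lower in the second, beside 10% and 10.5%. At an unadjusted p under 0.05 the second line had 0 higher and 1 lower, beside 3249 and 3379 of all 20434 genes. DESeq2 called none of the 4 there, beside 1797 higher and 1799 lower of all genes. The median log2 fold change was 0.10 and 0.01. Over all 10 members, every emb1579-1-labelled library lay below both Col-0 libraries for 4 and above them for 2, beside 22.9% and 21.9% of all genes. The emb1579-3 libraries did so for 4 and 2, beside 24.9% and 24.1%.

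XTH4 (AT2G06850, chromosome 2 from 2763449 to 2765743, plus strand), which encodes an endotransglucosylase also known as EXGT-A1, was at 168.0 and 139.2 CPM in Col-0. It was at 209.8, 229.5 and 213.8 CPM in the emb1579-1-labelled libraries, and at 154.0, 161.0 and 162.0 CPM in emb1579-3. The emb1579-1-labelled libraries stood above all others, and those of emb1579-3 lay between the Col-0 values. The rise was 0.50 on the log2 scale (SE 0.09, edgeR adjusted p = 0.000652), or 1.42-fold, and the value in emb1579-3 was 0.05 (95% interval -0.14 to 0.24).

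XTH24 (AT4G30270, chromosome 4 from 14819192 to 14820595, minus strand), also called MERI5 and known from meristems, was at 61.4 and 41.8 CPM in Col-0, at 125.5, 108.2 and 102.2 CPM in the emb1579-1-labelled libraries, and at 70.5, 53.3 and 41.0 CPM in emb1579-3. The first line was above every other library, whereas emb1579-3 overlapped Col-0. Its rise of 1.12 on the log2 scale (SE 0.27, edgeR adjusted p = 0.0384), or 2.18-fold, was the largest change among the members. Whether it was called depended on the libraries fitted. Its call failed without Col-0 replicate 2 (0.87, adjusted p = 0.125), without replicate 1, 2 or 3 labelled emb1579-1 (1.03, 1.15 and 1.18, adjusted p = 0.0973, 0.098 and 0.0777) and without emb1579-3 replicate 2 (1.12, adjusted p = 0.0754). The rise passed with DESeq2 (1.12, adjusted p = 0.00156) and in edgeR with the replicate number as a block (1.26, adjusted p = 9.1e-07). By edgeR it also passed without emb1579-3 replicate 1 or 3 (1.12 each, adjusted p = 0.00496 and 0.0112). With only the 2 genotypes compared it passed as well (1.13, edgeR adjusted p = 0.00398). The emb1579-3 libraries belong to neither group of this comparison, and leaving any of them out kept the value at 1.12. In emb1579-3 the value was 0.09 (95% interval -0.57 to 0.76), too wide to tell a moderate change in either direction.

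XTH22 (AT5G57560, chromosome 5 from 23307006 to 23308680, minus strand), listed as TCH4 in the annotation and known as a gene induced by touch, had 156.5 and 186.4 CPM in Col-0. The emb1579-1-labelled libraries had 110.4, 140.9 and 129.4 CPM, all below Col-0, and those of emb1579-3 had 183.7, 146.0 and 174.8 CPM, which overlapped it. It fell by 0.43 on the log2 scale in the first (SE 0.12, edgeR adjusted p = 0.0164), a call that failed without Col-0 replicate 2 (-0.30, adjusted p = 0.177), and was at -0.03 (95% interval -0.28 to 0.22) in the second.

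XTH15 (AT4G14130, chromosome 4 from 8137020 to 8138392, minus strand), also known as XTR7 and as a target of shade signalling, was at 8.96 and 7.51 CPM in Col-0. Its level was 6.84, 5.84 and 7.23 CPM in the emb1579-1-labelled libraries and 6.49, 5.51 and 4.91 CPM in emb1579-3, from 69 to 145 counts per library. All libraries of the lines were below both Col-0 libraries. The log2 fold change was -0.31 (SE 0.17, adjusted p = 0.245) and -0.54 (SE 0.18, edgeR adjusted p = 0.0348). The call in emb1579-3 failed without Col-0 replicate 1 (-0.40, adjusted p = 0.256), without emb1579-3 replicate 2 (-0.53, adjusted p = 0.0775) or replicate 3 (-0.45, adjusted p = 0.133), and with DESeq2 (-0.54, adjusted p = 0.0804). XTH15 is the member that overlaps another gene, AT4G14120 on the opposite strand, by 382 exonic bases. That gene had group means of 1.14, 1.61 and 1.62 CPM, and since the counting is not stated to use strand, reads of the pair cannot be told apart. No 50-base word of the exons of any member occurs elsewhere in the TAIR10.1 genome.

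**Figure D2:**
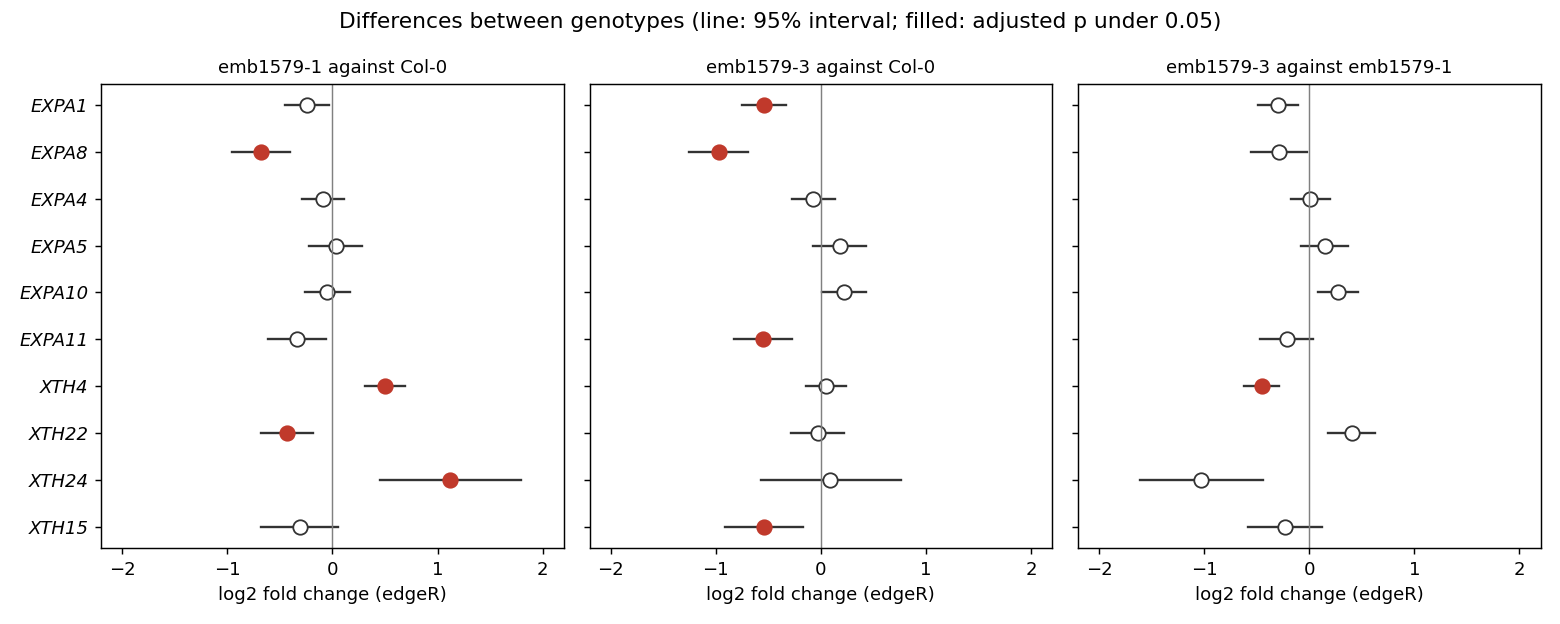
Log2 fold changes of the members by edgeR in the 3 comparisons, with 95% intervals; filled points passed an adjusted p under 0.05. EXPA8 is filled in both comparisons with Col-0, XTH22 and XTH24 in that of the emb1579-1-labelled libraries, and XTH4 there and in the comparison of the lines.

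Whether the lines differed was tested directly, emb1579-3 against emb1579-1. Few genes differed, 0.866% of all tested, and XTH4 was among them. It was lower in emb1579-3 by 0.45 on the log2 scale (SE 0.08, edgeR adjusted p = 0.00641), with the 3 libraries of each line on separate sides, a call lost without emb1579-1 replicate 2 (-0.41, adjusted p = 0.057). XTH24 had a larger but less certain difference of -1.03 (95% interval -1.61 to -0.44, adjusted p = 0.216), and XTH22 had 0.41 (0.18 to 0.63, adjusted p = 0.102). With DESeq2 both passed, at adjusted p = 0.00832 and 0.0186. XTH24 also passed without emb1579-3 replicate 1 (-1.25, adjusted p = 0.0377), and XTH22 without Col-0 replicate 1 (0.41, adjusted p = 0.0477) or emb1579-3 replicate 2 (0.50, adjusted p = 0.0367). None of the 6 expansin members passed by edgeR with the filter on low counts or by DESeq2. At an unadjusted p under 0.05, 1 was higher and 2 were lower, beside 926 and 1017 of all 20434 genes. Without that filter EXPA1 was called lower in emb1579-3 (-0.30, adjusted p = 0.038). The differences of EXPA1 at -0.30 (-0.49 to -0.11, adjusted p = 0.172), EXPA8 at -0.29 (-0.55 to -0.02, adjusted p = 0.465) and EXPA11 at -0.21 (-0.47 to 0.04, adjusted p = 0.635) missed the threshold with the filter. EXPA10 was at 0.27 (0.08 to 0.46, adjusted p = 0.284), with every emb1579-3 library above every library labelled emb1579-1. The 3 libraries of emb1579-3 lay wholly below those of the other line for 4 members and wholly above for 2, where 7.78% and 7.22% of all genes did.

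Among other alpha-expansins, the called genes were higher in both lines and of low level. Of 26 alpha-expansin genes, 17 were tested, and the other 9 had means of at most 0.362 CPM in each genotype. Among the 11 tested genes that are not members, 3 rose and 0 fell in each line. Beside these, 8.35% and 9.63% of all genes were called in the first comparison and 10% and 10.5% in the second. At an unadjusted p under 0.05, 4 were higher and 1 lower in each line. Of all 20434 genes, 2975 and 3198 were so in the first and 3249 and 3379 in the second. The lower gene was EXPA15, at 36.1 ± 3.94 CPM in Col-0, above the level of the 3 called genes. It was at -0.51 and -0.50 on the log2 scale (edgeR adjusted p = 0.059 and 0.0568), with every library of the lines below both of Col-0. DESeq2 called 3 higher and 1 lower in the emb1579-1-labelled libraries, beside 1568 and 1703 of all genes. In emb1579-3 it called 2 higher and 1 lower, beside 1797 and 1799. EXPA9 went from 9.87 ± 0.117 CPM (SD, n = 2) to 17.2 ± 1.34 and 17.4 ± 0.715 CPM (n = 3 each), a log2 rise of 0.80 (SE 0.12, adjusted p = 0.000162) and then 0.82 (SE 0.12, adjusted p = 0.000127) that held with any library left out. EXPA16, at 0.987 ± 0.434 CPM in Col-0, rose by 1.34 (SE 0.35) and 1.06 (SE 0.36), and EXPA20, at 0.712 ± 0.129 CPM, by 1.34 (SE 0.37) and 1.40 (SE 0.37). At these levels the sizes are uncertain. EXPA20, which overlaps another gene, lost both calls with Col-0 replicate 2 left out (1.16 and 1.22, adjusted p = 0.106 and 0.076), and the first also without emb1579-1 replicate 3 (1.27, adjusted p = 0.059). EXPA16 lost both with Col-0 replicate 1 left out (0.99 and 0.71, adjusted p = 0.089 and 0.252), the first also without emb1579-1 replicate 2 (1.18, adjusted p = 0.0581). The second was lost as well without emb1579-1 replicate 3 (1.06, adjusted p = 0.0566) or emb1579-3 replicate 1, 2 or 3 (1.11, 0.96 and 1.11, adjusted p = 0.0666, 0.112 and 0.0769), with DESeq2 (1.08, adjusted p = 0.0669) with upper-quartile factors (1.04, adjusted p = 0.0516) and with only the 2 genotypes fitted (1.06, adjusted p = 0.0564). EXPA7 and EXPA18, known from root hairs, did not pass the test.

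**Figure D3:**
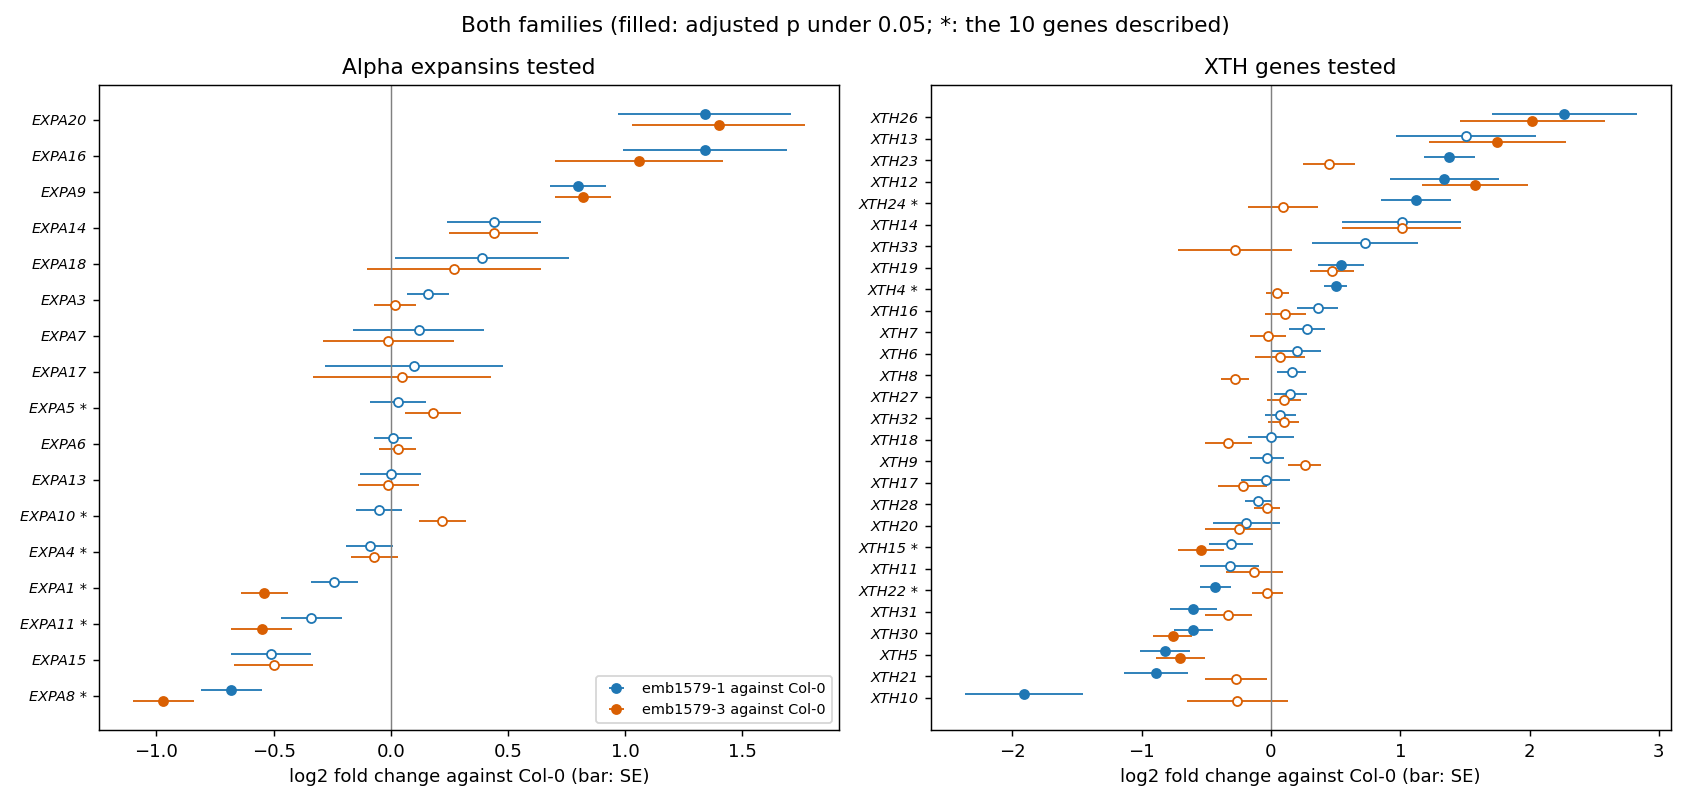
Log2 fold change against Col-0 with its SE for the 17 alpha-expansins and 28 XTH genes tested; blue is the comparison of the emb1579-1-labelled libraries, orange that of emb1579-3, filled points passed an adjusted p under 0.05, and stars mark the members. Both comparisons share the Col-0 libraries. EXPA8 has the lowest and EXPA9, EXPA16 and EXPA20 the highest values among alpha-expansins.

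Beta-expansins and expansin-like genes also went both ways, 2 higher and 2 lower of 7 tested in the emb1579-1-labelled libraries and 1 higher and 2 lower in emb1579-3, beside the same shares of all genes. EXLB1 rose from 9.58 ± 0.795 CPM in Col-0 to 13.9 ± 1.69 and 19.4 ± 1.87 CPM, by 0.53 (SE 0.14) and 1.01 (SE 0.14, adjusted p = 4.05e-05). Without Col-0 replicate 1 its first call was lost (0.46, adjusted p = 0.0784). EXLA3 fell by 1.44 (SE 0.43) and 1.61 (SE 0.44) on the log2 scale from 2.42 CPM in Col-0, the first a call lost without either Col-0 library (-1.43 each time, adjusted p = 0.0542 and 0.0869) or without emb1579-1 replicate 1 or 3 (-1.09 and -1.26, adjusted p = 0.0695 and 0.102). EXPB3, the most abundant of this group in CPM, fell in the emb1579-1-labelled libraries by 0.38 (SE 0.10) from 84.4 ± 6.39 to 64.9 ± 2.84 CPM, a call lost without Col-0 replicate 2 (-0.30, adjusted p = 0.13). EXPB2 at 1.79 (SE 0.58, adjusted p = 0.0374) in the first line and EXLA1 at -0.42 (SE 0.14, adjusted p = 0.0428) in the second passed narrowly. EXPB2 lost its call without any library other than emb1579-1 replicate 3 (1.42 to 1.93, adjusted p = 0.0502 to 0.154), and with DESeq2 (1.82, adjusted p = 0.0728), no filter (1.82, adjusted p = 0.124) or only the 2 genotypes fitted (1.80, adjusted p = 0.0653). EXLA1, which overlaps another gene, lost its call without either Col-0 library, emb1579-1 replicate 3, or emb1579-3 replicate 2 or 3 (-0.42 to -0.32, adjusted p = 0.0612 to 0.165).

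Of 33 XTH genes, 28 were tested, with 6 higher and 6 lower in the emb1579-1-labelled libraries and 3 and 3 in emb1579-3, beside 8.35% and 9.63%, and 10% and 10.5%, of all genes. The 4 members held 36.0% ± 0.269 of the summed CPM per kb of the family in Col-0, 39.7% ± 1.02 in the emb1579-1-labelled libraries and 34.9% ± 0.871 in emb1579-3. The family sum itself ran from 682.2 to 720.5 CPM per kb in Col-0, from 771.0 to 796.6 in the first line and from 695.4 to 781.7 in the second. XTH23, like XTH4, was called higher in the emb1579-1-labelled libraries and differed between the lines. XTH23 rose from 4.50 ± 0.363 CPM in Col-0 to 11.7 ± 2.06 CPM in the emb1579-1-labelled libraries. That was a rise of 1.38 on the log2 scale (SE 0.20, edgeR adjusted p = 6.59e-05). In emb1579-3 the libraries of XTH4 lay between the Col-0 values. Those of XTH23 (7.37, 5.99 and 5.04 CPM) all lay above both of Col-0 (4.76 and 4.25 CPM). The emb1579-3 mean of XTH23 was 6.13 ± 1.17 CPM (0.45, SE 0.20, edgeR adjusted p = 0.133). The difference between the lines was -0.93 (SE 0.17, adjusted p = 0.00821), a call lost without emb1579-1 replicate 2 or 3 (-0.86 each, adjusted p = 0.0599 and 0.0669) or emb1579-3 replicate 3 (-0.80, adjusted p = 0.0748). XTH8, at 22.0 ± 1.79 and 16.2 ± 0.443 CPM in the lines, also differed between them by -0.44 (SE 0.10, adjusted p = 0.0453), which was lost without Col-0 replicate 2 or any library of the lines (-0.51 to -0.40, adjusted p = 0.0525 to 0.226) with DESeq2 (adjusted p = 0.0538) and with only these 2 genotypes fitted (-0.44, adjusted p = 0.0543). In all, 3 of 28 XTH genes and 0 of 17 alpha-expansins were called between the lines, beside 0.866% of all genes. At an unadjusted p under 0.05 there were 10 and 3, beside 1943 of all 20434 genes. DESeq2 called 4 and 0, beside 135 higher and 139 lower of all genes.

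Several XTH genes of low level were called in the same direction in both lines. XTH26, a gene known from root hairs, rose by 2.27 (SE 0.56) and 2.02 (SE 0.56) from 0.352 ± 0.235 CPM in Col-0, XTH12 by 1.34 (SE 0.42) and 1.58 (SE 0.41) from 1.18 ± 0.45 CPM, XTH5 fell by 0.82 (SE 0.19) and 0.70 (SE 0.19) from 6.18 ± 0.264 CPM, and XTH30 fell by 0.60 (SE 0.15) and 0.76 (SE 0.15) from 14.8 ± 2.21 CPM. Only the call of XTH26 in the first line and that of XTH30 in the second held with each of the 8 libraries left out. XTH26 lost its second call without Col-0 replicate 1 (1.53, adjusted p = 0.0899) or emb1579-3 replicate 3 (1.82, adjusted p = 0.065). XTH30 lost its first without Col-0 replicate 1 (-0.43, adjusted p = 0.129) or emb1579-1 replicate 3 (-0.51, adjusted p = 0.0516). XTH5 lost both without Col-0 replicate 2 (-0.77 and -0.66, adjusted p = 0.0508 and 0.0831). XTH12 lost both without Col-0 replicate 1 (1.04 and 1.28, adjusted p = 0.182 and 0.0875), and the first also without Col-0 replicate 2, emb1579-1 replicate 1 or emb1579-3 replicate 3 (1.81, 0.85 and 1.34, adjusted p = 0.06, 0.123 and 0.0563). In the emb1579-1-labelled libraries, XTH10 also fell by 1.91 (SE 0.46), XTH21 by 0.89 (SE 0.25) and XTH31 by 0.60 (SE 0.18), and XTH19 rose by 0.54 (SE 0.18, adjusted p = 0.0495). XTH10 and XTH21 lost their calls without Col-0 replicate 2 (-1.57 and -0.67, adjusted p = 0.0745 and 0.19), XTH21 also without emb1579-1 replicate 3 (-0.81, adjusted p = 0.0739). XTH31 lost its call without any of 6 libraries (-0.71 to -0.45, adjusted p = 0.0565 to 0.236), all but emb1579-3 replicates 1 and 2. XTH19 lost its call without Col-0 replicate 1, emb1579-1 replicate 1 or 3, or emb1579-3 replicate 1 or 3 (0.34 to 0.61, adjusted p = 0.0533 to 0.233) and with upper-quartile factors (0.52, adjusted p = 0.068), a minimum of 10 CPM (0.52, adjusted p = 0.0685), only the 2 genotypes fitted (0.54, adjusted p = 0.0537) or organelle genes kept (0.54, adjusted p = 0.0513). In emb1579-3, XTH13 was higher by 1.75 (SE 0.53, adjusted p = 0.0279), which was no longer called without Col-0 replicate 1 (1.31, adjusted p = 0.153) or emb1579-3 replicate 1 or 2 (1.55 and 1.75, adjusted p = 0.0877 and 0.0625).

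Some XTH members lie in tandem with other XTH genes. XTH24 lies on chromosome 4 beside XTH18 (14825757 to 14827211) and XTH19 (14828712 to 14830224), with no other coding gene between them. In the emb1579-1-labelled libraries XTH24 had 112.0 ± 12.1 CPM against 51.6 ± 13.9 in Col-0, XTH19 had 22.5 ± 4.85 against 15.4 ± 2.74 CPM (adjusted p = 0.0495), and XTH18 had 21.1 ± 2.30 against 21.2 ± 3.44 CPM (adjusted p = 0.993). XTH22 lies on chromosome 5 in a cluster with XTH12, XTH13 and XTH25, from 23300321 to 23308680, with 1 other coding gene inside it. XTH12 rose in that line where XTH22 fell, XTH13 was at 1.51 (adjusted p = 0.0658), and XTH25, at 0.750 CPM in Col-0, was not tested. Differences between neighbours were not tested against each other.

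**Figure D4:**
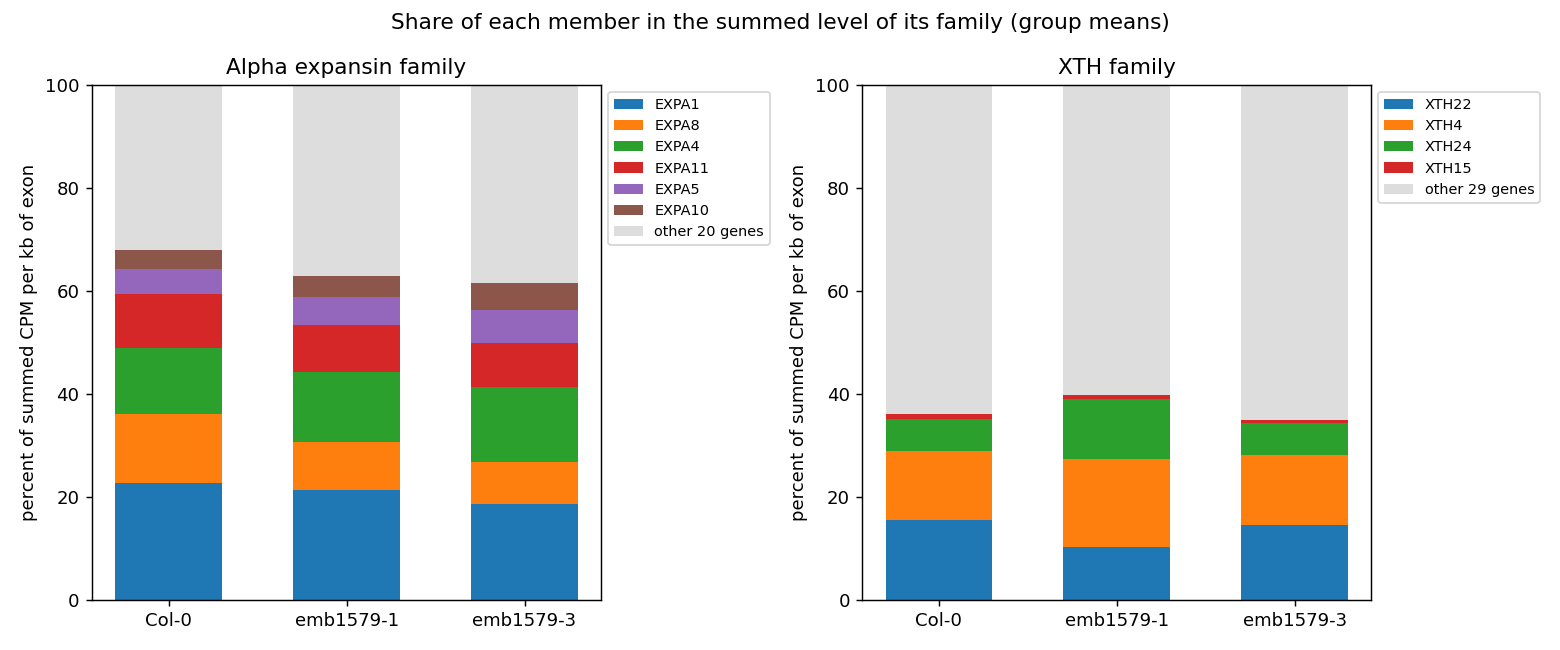
Share of each member in the summed CPM per kb of its family, as group means in percent on axes from 0 to 100, with all other family genes in grey. EXPA8 takes 13.4% of the alpha-expansin sum in Col-0 and 8.22% in emb1579-3, and XTH24 takes 6.05% of the XTH sum in Col-0 and 11.7% in the emb1579-1-labelled libraries.

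The polymers on which these proteins act are made by other gene families. Of 17 genes of xyloglucan synthesis and trimming, 1 was higher and 1 lower in the emb1579-1-labelled libraries, and 2 were higher and 1 lower in emb1579-3, with medians of -0.02 and 0.05 on the log2 scale. In either direction 18% and 20.5% of all genes were called. MUR3, a xyloglucan galactosyltransferase, rose in both by 0.37 (SE 0.11) and 0.41 (SE 0.11), from 30.8 ± 0.661 to 39.8 ± 5.38 and 41.0 ± 2.102 CPM. The first call was lost without either Col-0 library (0.36 and 0.39, adjusted p = 0.0679 and 0.0784) or emb1579-1 replicate 1 (0.26, adjusted p = 0.0672). XLT2, a galactosyltransferase that acts on another position of the chain, fell in the emb1579-1-labelled libraries by 0.37 (SE 0.10), which was lost without either Col-0 library or emb1579-1 replicate 2 or 3 (-0.39 to -0.33, adjusted p = 0.0578 to 0.0895). BGAL10, a galactosidase that trims xyloglucan, fell in emb1579-3 by 0.45 (SE 0.10), lost without Col-0 replicate 1 (-0.26, adjusted p = 0.111). The glucan synthase gene CSLC12 rose there by 0.97 (SE 0.32, adjusted p = 0.0351) from 1.55 CPM, a call lost with DESeq2 (adjusted p = 0.0589), without either Col-0 library or without emb1579-3 replicate 1 or 3 (0.73 to 0.99, adjusted p = 0.0816 to 0.183). None of 9 genes of primary wall cellulose passed edgeR's test or DESeq2 in any comparison, with log2 fold changes of -0.18 to 0.22. At an unadjusted p under 0.05 there were 0, 1 and 1, beside 6173, 6628 and 1943 of all 20434 genes.

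Among 22 tested regulators of cell elongation and proton pumps, 3 were higher and 2 lower in the emb1579-1-labelled libraries, and 2 and 2 in emb1579-3, beside 18% and 20.5% of all genes in either direction. The phytochrome-interacting factor genes PIF3 and PIF5, which promote elongation, rose in the first by 0.88 (SE 0.13, adjusted p = 0.000103) and by 0.42 (SE 0.08, adjusted p = 0.0016), and in the second by 0.78 (SE 0.13, adjusted p = 0.000292) and by 0.51 (SE 0.08, adjusted p = 0.000276). HY5, a factor of light-grown development, fell by 0.84 (SE 0.12, adjusted p = 8e-05) and by 0.65 (SE 0.12, adjusted p = 0.000742), from 18.0 ± 0.335 CPM in Col-0 to 10.03 ± 0.238 and 11.5 ± 0.536 CPM. All 6 libraries of the lines were below Col-0, and the calls of PIF3, PIF5 and HY5 held with each library left out. CPD, a gene of brassinosteroid synthesis that overlaps another gene, fell in emb1579-3 by 0.41 (SE 0.10, adjusted p = 0.00571), a call lost without Col-0 replicate 1 (-0.29, adjusted p = 0.0936). The remaining calls, in the emb1579-1-labelled libraries, were BES1, a brassinosteroid transcription factor gene that overlaps another gene, at 0.32 (adjusted p = 0.0159), and PRE6 at -0.70 (adjusted p = 0.0187). BES1 lost its call without Col-0 replicate 2 (0.25, adjusted p = 0.176), and PRE6 without Col-0 replicate 1 or 2 or emb1579-1 replicate 3 (-0.61, -0.78 and -0.62, adjusted p = 0.105, 0.0505 and 0.0779). None of the 22 passed edgeR's test or DESeq2 between the lines, with 4 at an unadjusted p under 0.05, beside 1943 of all 20434 genes.

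Expression patterns closest to those of the 3 members with the smallest adjusted p, EXPA8, XTH4 and EXPA1, were sought among 6195 named genes that averaged 10 CPM or more. The measure was the root-mean-square difference of centred log2 CPM over the 8 libraries. The same differences in genotype and depth between these libraries enter the values of every gene. For EXPA8 the nearest were APS4 at 0.090, RbcX1 at 0.091 and FRO4 at 0.100, the first 2 of which overlap another gene. For XTH4 they were PYL4 at 0.084, NF-YA3 at 0.095 and FLA9 at 0.099, and for EXPA1 PP2-A14 at 0.066, CYP72A13 at 0.069 and PRR5 at 0.072. No other expansin or XTH gene was among these 9.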

How the data were processed

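The authors deposited 1 table of whole-number read counts per gene for 33602 loci and 9 libraries. FastQC, HISAT2, Cufflinks, Cuffdiff and TAIR10 are named, without versions, in the submitters' processing notes. For the counting of reads, its tool and use of strand were not stated in the labels or headers. A TruSeq kit was used, per the labels' protocols.

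From these counts, 33323 nuclear loci were kept and 279 organelle loci, 45.8% to 49.6% of counts in the 8 libraries used, were left out of totals. The test was edgeR's (version 4.0.16, R 4.3.3), with TMM factors, filterByExpr (20434 genes left), robust dispersions (common biological coefficient of variation 0.0884, 5 residual degrees of freedom) and the quasi-likelihood F-test, each genotype having its own coefficient. The Benjamini-Hochberg adjustment ran over every tested gene, and a gene was called at an adjusted p under 0.05. Standard errors are the absolute log2 fold change over the square root of F. CPM is on TMM-scaled nuclear totals, and exon lengths, names, overlaps and promoters come from the RefSeq annotation of TAIR10.1. Of 132 list entries, 130 had their name at the locus. Replicates are biological per the series' design text, and no pair agreed within sampling noise (chi-square of at least 3.95 per gene). DESeq2 1.42.0 was an alternative. The scripts were tested on simulated counts. The members and gene lists were chosen with earlier results of these data known, as was the choice to leave out Col-0 replicate 3.

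Named genes were EMB1579, the 10 members, every other expansin or XTH gene called in any comparison, up to 4 called genes of each other list with the smallest adjusted p, and for 3 members the 3 genes most like them. EXPA15 was added as the other alpha-expansin that was lower at an unadjusted p under 0.05.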

Additional observations from a re-analysis of the deposited data

Results flagged for a closer look

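The direct comparison of the lines singled out 4 of the named genes, whose change against Col-0 differed between emb1579-3 and the libraries labelled emb1579-1 by edgeR's test. XTH4 was lower in emb1579-3 by a log2 fold change of -0.45, XTH23 by -0.93 and XTH8 by -0.44. EMB1579 itself differed by -5.04. In XTH4, XTH23 and XTH8 the 3 libraries labelled emb1579-1 all lay above the 3 of emb1579-3.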

How the results depend on the processing

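Against Col-0, the called members kept their direction in every fit of the 8 libraries, and DESeq2 size factors, upper-quartile factors, organelle genes kept or only the 2 genotypes compared changed no member's call. With Col-0 replicate 3 in the fit, 0 members were called in any comparison, and over all genes 58 were higher and 56 lower in the emb1579-1-labelled libraries, 69 and 71 in emb1579-3, and 0 and 2 between the lines. There XTH22 turned to 0.05, EXPB3 to 0.05 and RBCS3B to 0.18 and 0.22 on the log2 scale, EXPA20 to -0.99 and -0.92, BGAL10 to 0.00 and CA1 to 0.10. That library had 0.42 M nuclear counts.

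Between the lines, DESeq2 called 135 genes higher and 139 lower, with 1 and 2 members, against 88, 89, 0 and 1. Without a filter the numbers were 283 and 301, with 1 and 3 members (XTH22 higher, EXPA1, XTH4 and XTH24 lower), and the median of all genes against Col-0 moved to -0.153 and -0.161. A minimum of 10 CPM left XTH15 untested. With the longest transcript as length, EXPA10 in Col-0 was at 15.73 and XTH4 in emb1579-3 at 102.7 CPM per kb. The causes were not tested.

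With 1 library left out at a time, 1 to 2 members were higher and 2 to 4 lower in the emb1579-1-labelled libraries, 0 higher and 2 to 4 lower in emb1579-3, and 0 to 1 higher and 0 to 2 lower between the lines. Over all genes the counts were 1179 to 2005 and 1369 to 3071, 1304 to 2496 and 1510 to 3060, and 34 to 210 and 29 to 160.

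Deviations of libraries with the same replicate number were weakly correlated at most (r = -0.101 to 0.122), beside -0.134 to 0.101 for unlike numbers. Between the lines alone, r was 0.025 to 0.122 for the same number and -0.134 to 0.029 for unlike numbers. The main fit did not take the numbers as pairs. XTH24 fell from each replicate to the next in every genotype, and whether this reflects a pairing was not tested. With the replicate block, 2 members were lower between the lines, XTH4 and XTH24 (-1.05, adjusted p = 9.35e-06), and EXPA11 was also called in the emb1579-1-labelled libraries (-0.33, adjusted p = 0.0258). Calls lost with the block were XTH19 (0.52, adjusted p = 0.0911) and XTH31 (-0.56, adjusted p = 0.106) in that comparison, and EXLA1 (-0.36, adjusted p = 0.099) and CSLC12 (0.77, adjusted p = 0.106) in emb1579-3. The block gave 1701 higher and 1895 lower, 1920 and 1937, and 128 and 128 genes. With 2 or 3 libraries a group, p-values measure only the spread between these libraries.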
